A study of Homo sapiens with 12 samples.

Results

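The messenger RNAs of immunoglobulin chains and of 2 proteins that help assemble them were followed in 3 human myeloma cell lines. The members were all probe sets whose gene symbol field held IGHM, IGHD, IGHG1, IGHA1, IGKC, IGLL5, IGLL1, JCHAIN or MZB1, alone or among several symbols. The rule found 78 of the 54675 probe sets on Affymetrix U133 Plus 2.0 arrays. INA-6 is a myeloma line that needs interleukin 6, MM.1R is a dexamethasone-resistant line derived from the same parent culture as MM.1S, and MM.1S is its dexamethasone-sensitive counterpart. All 3 lines carried green fluorescent protein (GFP). Each had been kept for 24 hours with the unlabelled bone marrow stromal line HS-5 (coculture) or without it (alone), and GFP-positive cells were sorted before RNA was taken. The 6 groups were INA-6 coculture, INA-6 alone, MM.1R coculture, MM.1R alone, MM.1S coculture and MM.1S alone, with 2 arrays each. The series text calls the duplicates technical replicates, so p-values within and between lines measure only the spread between duplicate arrays. Each line stands for 1 culture of tumour cells, and HS-5 is itself an established line.

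An antibody is built from paired heavy and light chains. A plasma cell normally uses a single light chain class, kappa or lambda, and a single heavy chain isotype. IGHM, IGHD, IGHG1 and IGHA1 encode the constant regions of the mu, delta, gamma and alpha heavy chains, and IGKC encodes the kappa constant region. IGLL1 encodes the lambda 5 chain of the pre-B-cell receptor. IGLL5 is a lambda-like gene that shares constant-region sequence with the lambda gene IGLC1. JCHAIN encodes the joining chain that links IgM and IgA into polymers, and MZB1 encodes an endoplasmic reticulum protein that aids heavy chain folding and secretion. In RefSeq's GRCh38.p14 annotation IGKC lies on chromosome 2, the 4 heavy chain genes lie on chromosome 14 and both lambda-like genes lie on chromosome 22. JCHAIN lies on chromosome 4 and MZB1 on chromosome 5.

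JCHAIN and MZB1 are shown by the 250 bases before their annotated start, since both had lower levels in INA-6 coculture than in INA-6 alone. The sequences are RefSeq's (GRCh38.p14, minus strand, 5′ to 3′), chr4:70666509-70666758 for JCHAIN and chr5:139389914-139390163 for MZB1. Capitals mark letters found by searching both strands for 4 motifs: the immunoglobulin octamer ATGCAAAT, its last 7 letters TGCAAAT, the E-box CACGTG and the CCAAT box.
JCHAIN: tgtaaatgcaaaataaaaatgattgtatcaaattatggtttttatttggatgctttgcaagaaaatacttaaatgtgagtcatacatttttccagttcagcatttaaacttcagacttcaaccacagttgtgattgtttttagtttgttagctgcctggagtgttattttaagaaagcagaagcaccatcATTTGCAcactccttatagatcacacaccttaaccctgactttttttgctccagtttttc
MZB1: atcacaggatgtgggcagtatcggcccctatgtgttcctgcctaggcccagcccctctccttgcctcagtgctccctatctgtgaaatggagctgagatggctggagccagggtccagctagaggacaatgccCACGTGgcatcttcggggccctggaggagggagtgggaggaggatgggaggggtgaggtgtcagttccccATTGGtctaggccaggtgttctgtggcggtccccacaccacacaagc
The JCHAIN window held the 7-letter form on the opposite strand, beginning 60 bases before the start. That form occurs in 3.67% of the 35116 RefSeq windows of the same length, and the full octamer, present in 1.63% of them, was in neither window. The MZB1 window held CACGTG 117 bases before the start and the CCAAT box on the opposite strand 47 bases before it. These letters occur in 6.34% and 32.0% of the windows. A match of this kind is a description of letters only. Of the 9 symbols, 3 (JCHAIN, MZB1 and IGLL1) had an entry in the promoter table, and the IGLL1 window held none of the 4 motifs.

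The deposited values are intensities on a linear scale. Changes are given on the log2(intensity + 5) scale, which understates the change of dim probe sets. Tests were run on probe sets that exceeded the array median on at least 2 of the 12 arrays, and array medians ran between 19.78 and 24.09. Of the 78 members 39 passed, and of the 39 that did not, 30 were at or below the median on every array and none exceeded 110.34. A member that passed only through a group in which it was high had to differ between groups, so the 39 are not a sample of all members. A change is called when limma's Benjamini-Hochberg adjusted p over all 35664 tested probe sets is under 0.05.

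The array's naming marks 42 of the 78 members with the suffix _x_at, for probes that can also bind other sequences, and 5 with _s_at, for probes shared by related transcripts. The annotation gave 46 members several symbols. Of the 34 heavy chain probe sets with several symbols 13 were tested, and of the 17 with a single heavy chain symbol 6 were tested. Of the 19 kappa probe sets 14 were tested, of the 5 lambda-like ones 3, and JCHAIN (1 probe set) and MZB1 (2 probe sets) passed in full. A level is therefore given by probe set, and levels of different probe sets are not set against each other.

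The arrays differed in RNA quality and in stromal signal. The ratio of 3′ to 5′ intensity of the ACTB control was 32.0 ± 0.530 in INA-6 coculture and 5.51 ± 0.291 in INA-6 alone, 5.21 ± 0.285 in MM.1R coculture and 31.4 ± 1.16 in MM.1R alone, and 5.10 ± 0.191 in MM.1S coculture and 22.4 ± 0.455 in MM.1S alone (SD, n = 2 each). INA-6 thus had the high ratio in coculture and both MM.1 lines had it alone. The summed intensity of 15 stromal markers ran between 17876.2 and 32115.6 in the 3 coculture groups and between 1244.1 and 5092.6 in the groups kept alone, and 7 of the 14 tested markers were called higher in coculture in the fit common to the lines. In such bulk RNA, fewer cells of a type and less RNA per cell cannot be told apart. Of 9 plasma cell markers 8 lay above the array median on both arrays of every group. The INA-6 alone duplicates correlated least, at r = 0.821 over the tested probe sets on the log2 scale, against 0.929 to 0.982 in the other groups.

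**Figure D1:**
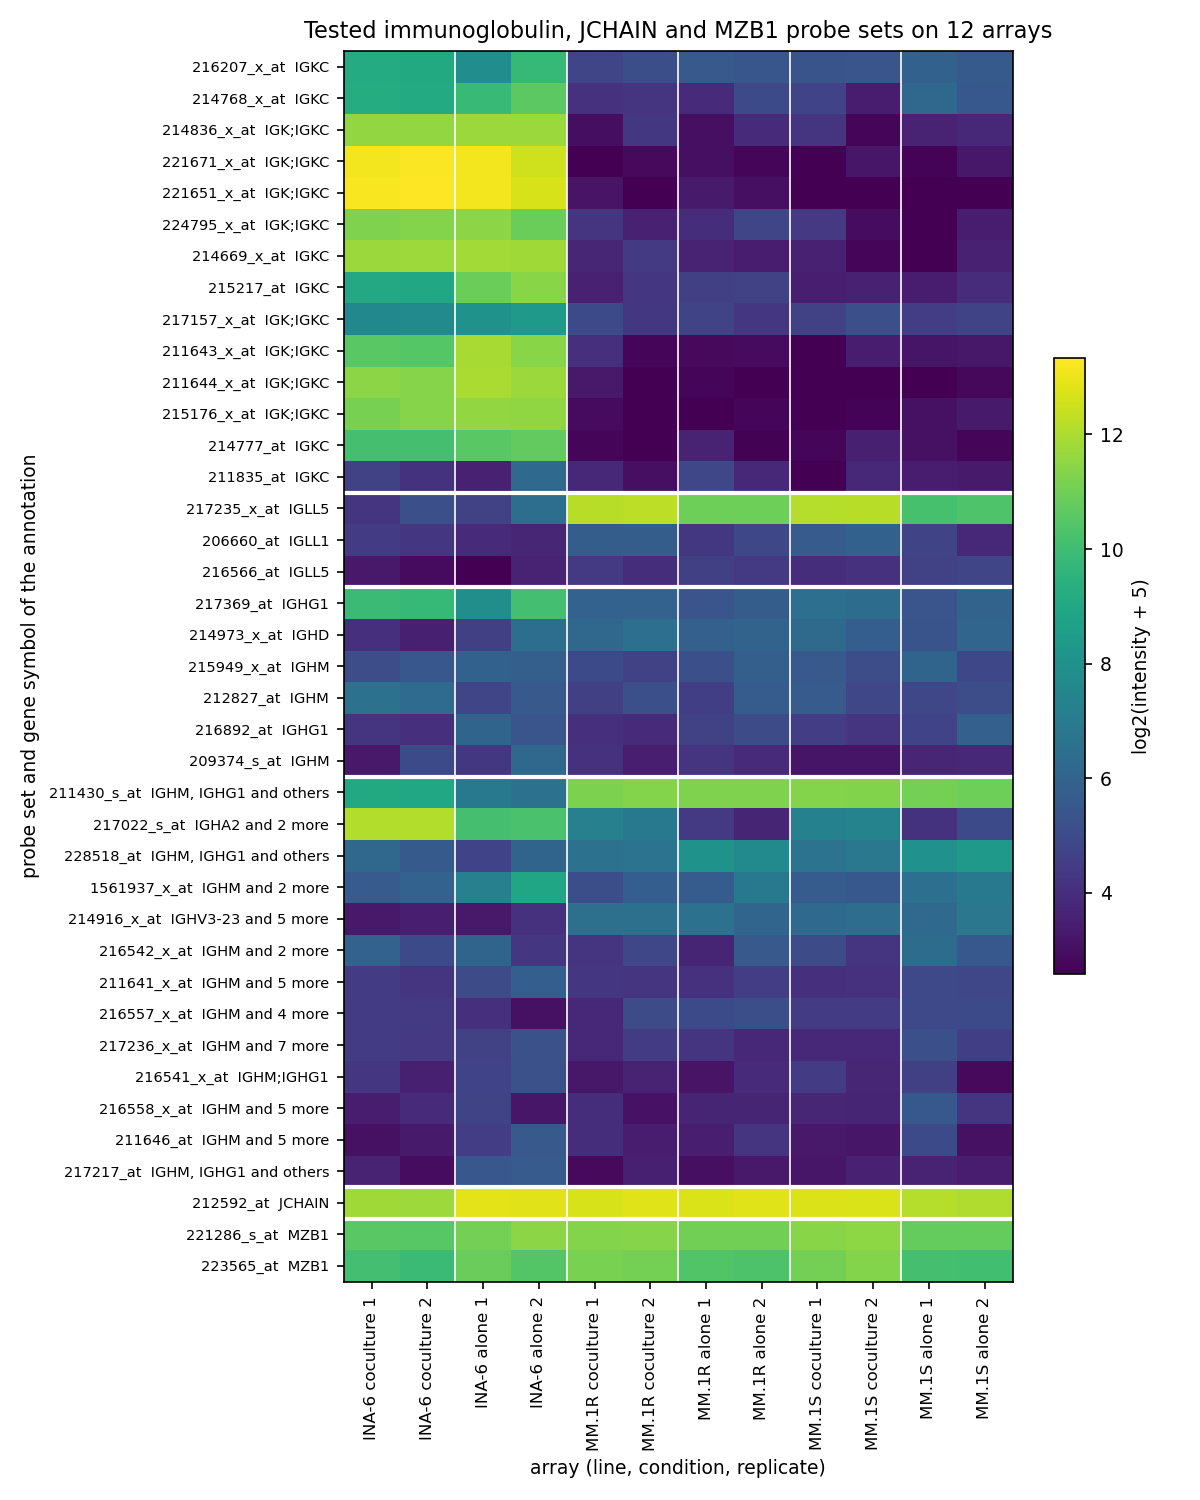
Log2(intensity + 5) of the 39 tested members (rows, by chain class) on the 12 arrays (columns). Of the 14 kappa rows at the top, 13 are bright in the 4 INA-6 columns and dark in the 8 MM.1 columns, while the IGLL5 row 217235_x_at has the opposite pattern.

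The light chain probe sets divided the lines. Kappa signal was high in INA-6 and near the bottom of the scale in MM.1R and MM.1S, and the IGLL5 probe set was high in both MM.1 lines and low in INA-6. For 13 of the 14 tested kappa probe sets every INA-6 array lay above every MM.1 array, a pattern found in 3.82% of all tested probe sets. Most of the 13 exceeded the array median on the INA-6 arrays only, so they passed the filter through INA-6. Such probe sets had to differ between the lines, so this count and their tests describe the division and add no support to it. The kappa probe set 221651_x_at (IGK;IGKC) read 9549 and 10258 in INA-6 coculture and 9071 and 6511 in INA-6 alone. It read 3.99 and 1.0 in MM.1R coculture, 5.23 and 3.26 in MM.1R alone, and 1.0 on all 4 MM.1S arrays. Its log2 difference between INA-6 and the mean of the MM.1 lines was 10.54 ± 0.22 in coculture (SE, adjusted p = 2.27e-07) and 10.02 ± 0.22 alone (adjusted p = 2.68e-07).

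The probe set 214669_x_at, which names IGKC only, gave the same division. It read 3381 and 3413 in INA-6 coculture and 3622 and 3511 in INA-6 alone, against 1.0 to 16.25 over the 8 MM.1 arrays. The main IGKC probe set, 216207_x_at, chosen for its mean of log2(intensity + 5) over the 12 arrays, read 574 and 552 in INA-6 coculture and 223 and 866 in INA-6 alone, against 23.74 to 55.37 in the MM.1 lines. Its difference was 3.94 ± 0.45 in coculture (SE, adjusted p = 0.000555) and 3.15 ± 0.45 alone (adjusted p = 0.000487). The duplicates of INA-6 alone were far apart on this probe set, yet the lower of them still stood 4.03 times above the highest MM.1 array.

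Among the 13 kappa probe sets called in both conditions the difference was least for 217157_x_at (IGK;IGKC) in coculture, at 2.84 ± 0.26 (adjusted p = 0.000186), and for 216207_x_at alone. The median over the 14 tested kappa probe sets was 7.42 in coculture and 7.86 alone, against 0.009 and -0.167 over all tested probe sets. Most of the 14 passed the filter through INA-6, so these medians describe selected probe sets and add no support to the division. The member that was not called in either condition, 211835_at, reached 70.75 at most in INA-6 and 24.27 at most in the MM.1 lines. The 5 untested kappa probe sets never rose above an array median, and their highest value was 17.35.

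The IGLL5 probe set 217235_x_at read 13.9 and 32.4 in INA-6 coculture and 21.3 and 83.2 in INA-6 alone. It read 4607 and 4842 in MM.1R coculture, 1952 and 1962 in MM.1R alone, 4522 and 4548 in MM.1S coculture, and 1167 and 1307 in MM.1S alone. Every INA-6 array lay below every MM.1 array, as it did for 5 of the 39 tested members and for 8.83% of all tested probe sets. The difference between INA-6 and the MM.1 lines was -7.44 ± 0.45 in coculture (adjusted p = 2.36e-05) and -5.02 ± 0.45 alone (adjusted p = 3.72e-05). The second tested IGLL5 probe set, 216566_at, was dim in all lines, at no more than 7.64 in INA-6 and 23.30 in the MM.1 lines, and was also called lower in INA-6 in both conditions. It exceeded the array median on 2 arrays only, both of MM.1 lines kept alone. It thus passed the filter through the lines in which it was higher, and its calls add no support to the division.

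Probe sets of IGLC1, the lambda constant gene, were looked up after the values of IGLL5 had been seen, because of the shared sequence. The IGLC1 probe set 209138_x_at read 615 and 610 in INA-6 coculture, 345 and 337 in INA-6 alone, and 4733 to 11737 over the MM.1 arrays. Across the 12 arrays its log2 values correlated with those of 217235_x_at at r = 0.965, and those of a second IGLC1 probe set, 234851_at, at r = 0.988. For the remaining tested IGLC1 probe sets r was 0.932 (214677_x_at), 0.818 (217138_x_at) and -0.115 (215214_at). These coefficients are descriptive, over arrays that share 3 lines and 2 conditions. In INA-6 coculture limma called rises of 209138_x_at (0.83, adjusted p = 0.00341) and 214677_x_at (1.59, adjusted p = 0.000982). It called no change there for 217235_x_at or the remaining IGLC1 probe sets. Whether 217235_x_at reads IGLL5, IGLC1 or both was not tested.

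IGLL1, the surrogate light chain, was dim throughout. Its probe set 206660_at read 17.3 and 14.3 in INA-6 coculture and 10.1 and 8.53 in INA-6 alone, 49.2 and 48.8 in MM.1R coculture and 15.2 and 25.1 in MM.1R alone, and 45.9 and 55.7 in MM.1S coculture and 22.6 and 9.07 in MM.1S alone. The 4 MM.1 coculture arrays were the highest and did not overlap with any other. The share of all tested probe sets with that pattern was not counted. The probe set exceeded the array median on MM.1 arrays only, mostly in coculture, so the filter favoured these differences. The difference between INA-6 and the MM.1 lines was -1.40 ± 0.29 in coculture (adjusted p = 0.0105, but 0.0672 and 0.0994 without INA-6 coculture replicate 1 or 2) and -0.62 ± 0.29 alone (adjusted p = 0.102).

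**Figure D2:**
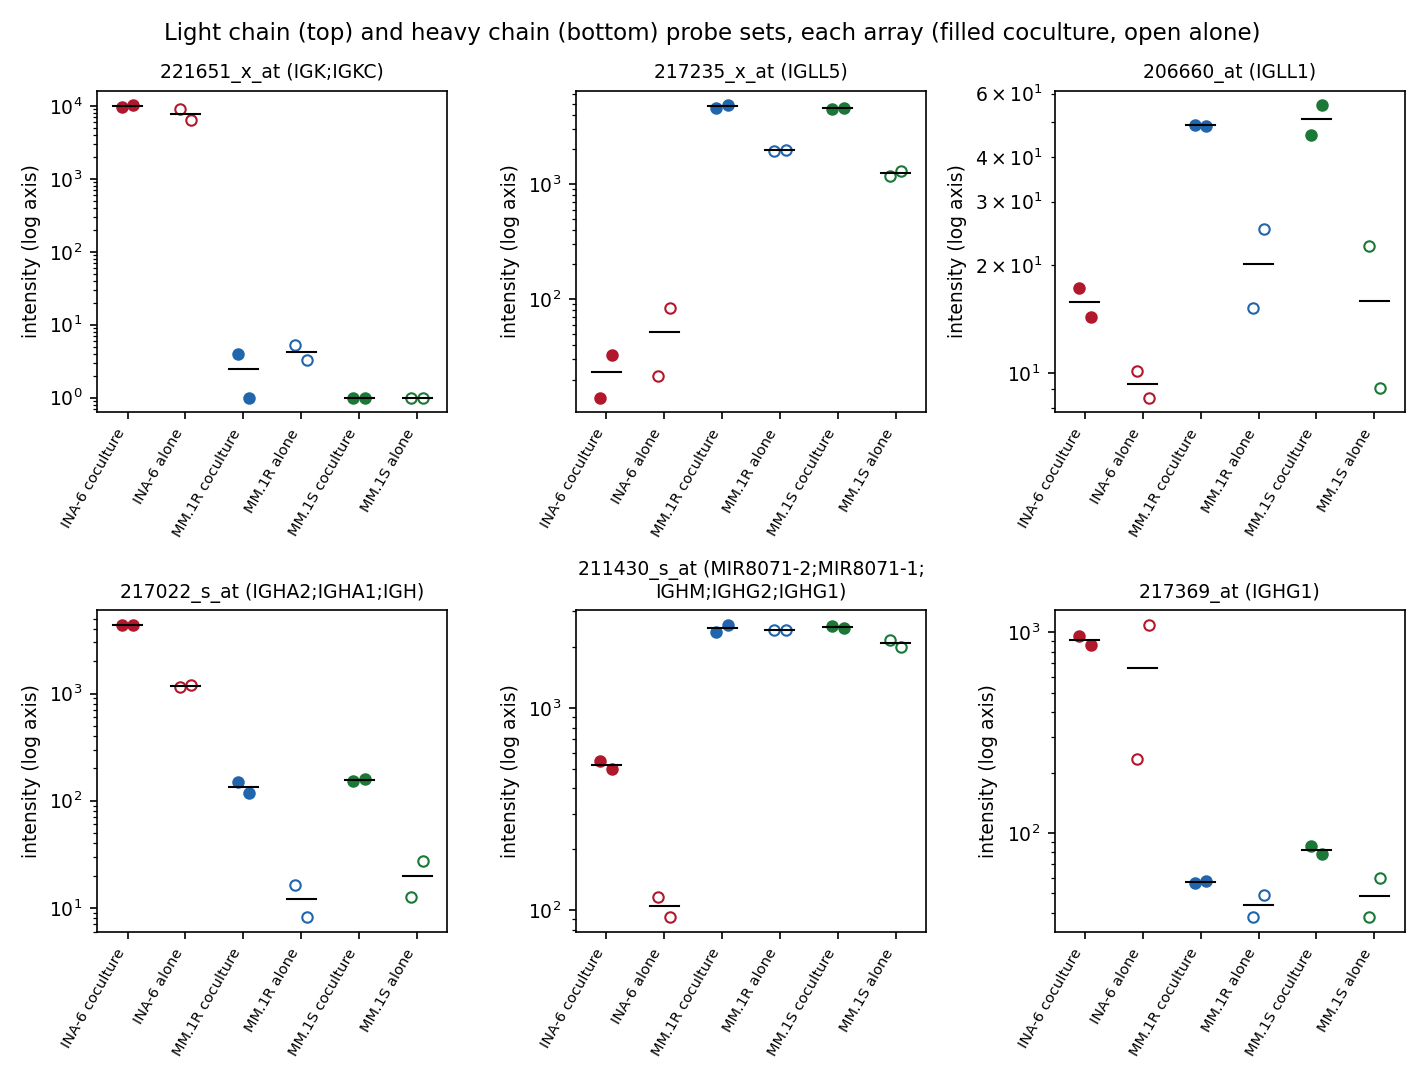
Intensity (log axis) of 3 light chain and 3 heavy chain probe sets on each array by line and condition, filled points for coculture, open points for alone, and bars for the mean of 2 arrays. The kappa probe set 221651_x_at and the heavy chain probe sets 217022_s_at and 217369_at are high in INA-6, and 217235_x_at and 211430_s_at are high in the MM.1 lines.

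Heavy chain probe sets did not divide the lines in 1 direction. A probe set naming both alpha genes and a gamma 1 probe set were higher in INA-6, and a probe set naming both mu and gamma genes was higher in the MM.1 lines. The probe set 217022_s_at (IGHA2;IGHA1;IGH) read 4373 and 4340 in INA-6 coculture and 1148 and 1196 in INA-6 alone. It read 149.5 and 118 in MM.1R coculture and 16.2 and 8.15 in MM.1R alone, and 151 and 161 in MM.1S coculture and 12.6 and 27.2 in MM.1S alone. Every INA-6 array lay above every MM.1 array, and the difference was 4.87 ± 0.28 in coculture (adjusted p = 1.88e-05) and 5.88 ± 0.28 alone (adjusted p = 1.72e-06).

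The other tested probe set with that pattern, 217369_at, names IGHG1 alone. It read 964 and 863 in INA-6 coculture and 233 and 1089 in INA-6 alone, against 56.50 to 85.99 on the MM.1 coculture arrays and 37.99 to 59.37 on the MM.1 alone arrays. The difference was 3.64 ± 0.51 in coculture (adjusted p = 0.00172) and 3.34 ± 0.51 alone (adjusted p = 0.000778). A second IGHG1 probe set, 216892_at, was dim in every group, between 10.16 and 60.97, so the IGHG1 probe sets did not show the same pattern.

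Higher heavy chain signal in the MM.1 lines came from 211430_s_at, whose symbols are MIR8071-2, MIR8071-1, IGHM, IGHG2 and IGHG1. It read 549 and 499 in INA-6 coculture and 116 and 92.1 in INA-6 alone. The MM.1 arrays ran between 1992 and 2575, with 2372 and 2575 in MM.1R coculture, 2428 and 2437 in MM.1R alone, 2553 and 2494 in MM.1S coculture, and 2178 and 1992 in MM.1S alone. The difference was -2.24 ± 0.16 in coculture (adjusted p = 5.09e-05) and -4.38 ± 0.16 alone (adjusted p = 6.61e-07). Which of its heavy chain genes the probes read is not settled by the annotation.

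Other multi-gene probe sets also divided the lines in part. The probe set 214916_x_at, which lists the variable segment IGHV3-23 with IGHM, IGHG3, IGHG1, IGHA2 and IGHA1, read between 4.89 and 12.34 in INA-6 and between 62.92 and 108.19 in the MM.1 lines. Its difference was -3.03 ± 0.28 in coculture and -2.73 ± 0.28 alone (adjusted p = 0.000184 and 7.22e-05). The probe set 228518_at (MIR8071-2;MIR8071-1;IGHM;IGHG1) read 69.8 and 44.8 in INA-6 coculture and 21.9 and 60.3 in INA-6 alone, 94.6 and 96.8 in MM.1R coculture and 269.5 and 206 in MM.1R alone, and 96.9 and 113 in MM.1S coculture and 254 and 319 in MM.1S alone. It was lower in INA-6 alone than in the MM.1 lines alone by the test (-2.65 ± 0.35, adjusted p = 0.000327), and the difference in coculture was -0.78 ± 0.35 (adjusted p = 0.170).

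Probe sets named for the mu and delta genes alone were dim. IGHM, by 215949_x_at, read 29.8 and 40.0 in INA-6 coculture and 55.3 and 52.5 in INA-6 alone, against 21.26 to 61.45 in the MM.1 lines, and its groups overlapped. Another IGHM probe set, 212827_at, read 92.2 and 75.4 in INA-6 coculture and 23.6 and 43.2 in INA-6 alone, and no MM.1 array exceeded 46.82. IGHD, by 214973_x_at, read 11.2 and 6.64 in INA-6 coculture and 19.4 and 83.6 in INA-6 alone, against 37.06 to 86.30 in the MM.1 lines. Its difference between INA-6 and the MM.1 lines was -2.42 ± 0.48 in coculture (adjusted p = 0.00864, but 0.0510 and 0.0895 without INA-6 coculture replicate 1 or 2) and -0.31 ± 0.48 alone (adjusted p = 0.618).

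Counted over the 39 tested members, 25 differed between INA-6 and the MM.1 lines in coculture, 16 higher and 9 lower, against 19.6% of all tested probe sets (8.23% higher and 11.4% lower). Alone, 25 also differed, 19 higher and 6 lower, against 51.8% of all tested probe sets (19.0% higher and 32.8% lower). Kappa supplied 13 of the higher calls in each condition, mostly from probe sets that exceeded the array median only on INA-6 arrays, in both conditions. Of the 14 tested probe sets that list IGHG1, 1 was higher and 2 were lower in coculture, and 4 were higher and 4 lower alone. Of the 10 that list IGHA1, 1 was higher and 1 lower in coculture, and 4 were higher and 2 lower alone.

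MM.1R and MM.1S stood on the same side of the light chain division. In coculture no member was called between them by limma, and 1 of the 39 had an unadjusted p under 0.05. Calls made up 0.00% of all tested probe sets there, so their lack is not particular to the members and does not show likeness. The log2 differences in coculture ran between -0.66 and 0.92. Alone, JCHAIN was the 1 member called, against 6.95% of all tested probe sets (5.81% higher), and 7 members had an unadjusted p under 0.05. JCHAIN was higher in MM.1R alone than in MM.1S alone by 0.68 ± 0.16 (SE, adjusted p = 0.0442). After quantile normalization the difference was -0.06. The call was lost on leaving out any 1 of the 10 arrays other than the INA-6 alone pair, with adjusted p between 0.0889 and 0.208.

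JCHAIN and MZB1 were bright in all 3 lines. JCHAIN, by 212592_at, read 3516 and 3469 in INA-6 coculture and 7456 and 7402 in INA-6 alone. It read 6592 and 7099 in MM.1R coculture and 6771 and 7134 in MM.1R alone, and 6973 and 6650 in MM.1S coculture and 4486 and 4198 in MM.1S alone. INA-6 coculture and MM.1S alone were the low groups, and the other 4 groups lay together between 6592 and 7456. In INA-6 the coculture change was -1.09 ± 0.16 (SE, adjusted p = 0.000865), and in MM.1R it was -0.02 ± 0.16 (adjusted p = 0.962). In MM.1S it was 0.65 ± 0.16 (adjusted p = 0.0174), but -0.37 after quantile normalization, so the direction in MM.1S depended on the scaling. The MM.1S call was also lost without MM.1S alone replicate 2 or either MM.1S coculture array (adjusted p between 0.0752 and 0.116).

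MZB1 had 2 probe sets, and both were lower in INA-6 coculture than in INA-6 alone. The first, 221286_s_at, read 1501 and 1473 in INA-6 coculture and 2190.1 and 2789 in INA-6 alone, 2572 and 2642 in MM.1R coculture and 2105 and 2115 in MM.1R alone, and 2722 and 2868 in MM.1S coculture and 1784 and 1774 in MM.1S alone. The second, 223565_at, read 1090.2 and 955 in INA-6 coculture and 1847 and 1392 in INA-6 alone, 2296 and 2177 in MM.1R coculture and 1362 and 1270.0 in MM.1R alone, and 2153 and 2562 in MM.1S coculture and 1127 and 1069 in MM.1S alone. In each line the coculture and alone arrays did not overlap on either probe set, but each group had only 2 arrays. The share of all tested probe sets with that pattern within a line was not counted.

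The changes of 221286_s_at were -0.73 ± 0.18 in INA-6 (adjusted p = 0.0102), 0.30 ± 0.18 in MM.1R (adjusted p = 0.354) and 0.65 ± 0.18 in MM.1S (adjusted p = 0.0265). Those of 223565_at were -0.65 ± 0.20 in INA-6 (adjusted p = 0.0296), 0.76 ± 0.20 in MM.1R (adjusted p = 0.0417) and 1.09 ± 0.20 in MM.1S (adjusted p = 0.00457). For 221286_s_at quantile normalization left 0.09 in MM.1S (adjusted p = 0.759), the MM.1S call was lost without any 1 MM.1S array (adjusted p between 0.0870 and 0.151), and the INA-6 call was lost without INA-6 coculture replicate 1 or 2 (adjusted p = 0.0518 and 0.0608). In each line both MZB1 probe sets were lower in the condition with the higher ACTB ratio, which was coculture in INA-6 (32.0) and alone in MM.1R (31.4) and MM.1S (22.4). JCHAIN was also lower in that condition in INA-6 and MM.1S, whereas MM.1R alone had JCHAIN within the range of the MM.1R coculture arrays or above it. The part of RNA quality in these changes was not tested.

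**Figure D3:**
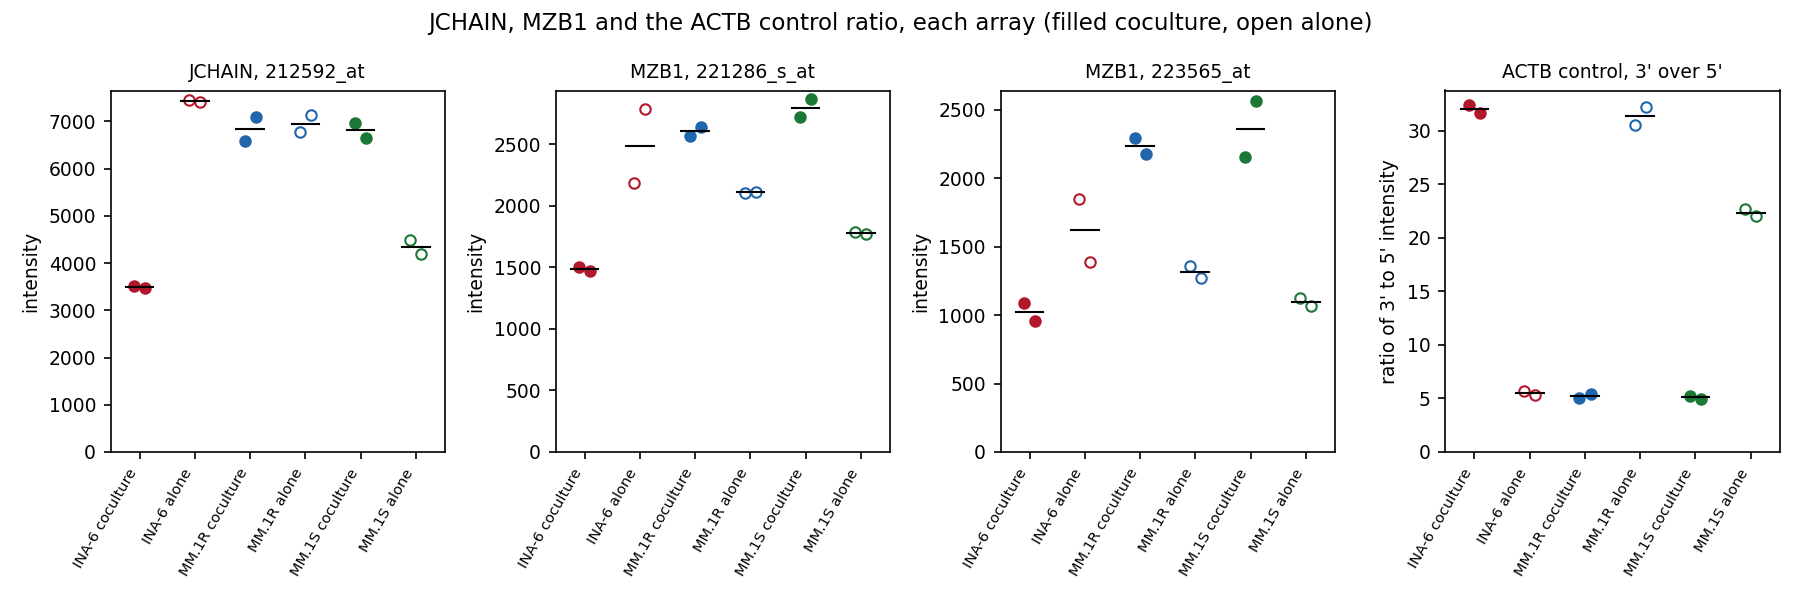
Intensity of JCHAIN and of both MZB1 probe sets, and the 3′ to 5′ ratio of the ACTB control, on each array by line and condition (filled points coculture, open points alone, bars the mean of 2 arrays, axes starting at 0). INA-6 coculture is below INA-6 alone in the first 3 panels, and the ACTB ratio is high in INA-6 coculture, MM.1R alone and MM.1S alone.

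The study asked what coculture with stromal cells did to the myeloma cells. In INA-6, 13 of the 39 tested members were called, 3 higher and 10 lower, against 47.7% of all tested probe sets (35.2% higher and 12.5% lower). The 3 that rose were the heavy chain probe sets 211430_s_at by 2.28 ± 0.18 (adjusted p = 4.04e-05), 217022_s_at by 1.89 ± 0.33 (adjusted p = 0.00187) and 212827_at by 1.25 ± 0.45 (adjusted p = 0.0497). The call of 212827_at was lost under 13 of 18 alternatives, with adjusted p up to 0.194, and the rise of 211430_s_at was 1.50 after quantile normalization. JCHAIN, both MZB1 probe sets, IGHD and 1 kappa probe set were among the 10 that fell. The median change of the 39 was -0.50, against 0.40 over all tested probe sets. Without INA-6 coculture replicate 1 the count was 7, and without replicate 2 it was 6.

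Of the 14 tested kappa probe sets 1 was called in INA-6, 215217_at (IGKC), which read 537 and 503 in INA-6 coculture and 1929 and 2726 in INA-6 alone, a change of -2.13 ± 0.29 (adjusted p = 0.000535). The changes of the 14 ran between -2.13 and 0.37 with a median of -0.37, and 221651_x_at changed by 0.37 ± 0.26 (adjusted p = 0.273). The kappa probe sets therefore disagreed in size among themselves. On 216207_x_at the change was 0.35 ± 0.51 (adjusted p = 0.608), and it was -0.14 after quantile normalization.

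Most of the heavy chain probe sets that fell in INA-6 were dim. Examples are 217217_at (LOC102723407;IGHM;IGHG4;IGHG1;IGHA2;IGHA1), which read 7.56 and 2.71 in INA-6 coculture and 40.3 and 46.0 in INA-6 alone (-2.29 ± 0.31, adjusted p = 0.000560), and 1561937_x_at (IGHM;IGHG1;IGHA1), which read 45.4 and 57.9 in INA-6 coculture and 146 and 473 in INA-6 alone (-2.26 ± 0.57, adjusted p = 0.0122). For IGHG1, 216892_at fell to 13.2 and 11.3 in INA-6 coculture, against 61.0 and 38.2 in INA-6 alone (-1.63 ± 0.38, adjusted p = 0.00810). The call of 1561937_x_at was lost without INA-6 alone replicate 2 (-1.43, adjusted p = 0.0582) or INA-6 coculture replicate 1 (adjusted p = 0.0665). IGHD fell by 1.76 ± 0.55 (adjusted p = 0.0289). Its change was -0.83 without INA-6 alone replicate 2 (adjusted p = 0.105) and -2.69 without INA-6 alone replicate 1, and the call was also lost without INA-6 coculture replicate 1 or 2 (adjusted p = 0.0648 and 0.141). The INA-6 coculture values of 217217_at, 216892_at and the IGHD probe set lay below the array medians. Of these, 217217_at exceeded the array median on the 2 INA-6 alone arrays only, and 216892_at on arrays kept alone only. Both thus passed the filter through the condition in which they were high, so their tests describe the falls and add no support.

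In MM.1R, 2 of the 39 were called, both higher, against 14.0% of all tested probe sets (10.5% higher). They were 217022_s_at, by 3.05 ± 0.33 (adjusted p = 0.000715), and the MZB1 probe set 223565_at, whose call was lost under 15 of 19 alternatives (adjusted p up to 0.211) and whose change was 0.45 after quantile normalization. The IGLL5 probe set 217235_x_at was higher on both coculture arrays than on both alone arrays, with a change of 1.27 ± 0.52 that missed the threshold (adjusted p = 0.165). How many of all tested probe sets were separated in this way in MM.1R was not counted. The count was 7 without either INA-6 alone array, 1 without any other single array except those of MM.1S alone, and 4 without all INA-6 arrays.

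In MM.1S, 9 of the 39 were called, 6 higher and 3 lower, against 29.3% of all tested probe sets (20.4% higher and 8.98% lower). The 6 were 217022_s_at by 2.75 ± 0.33 (adjusted p = 0.000496), IGLL5 by 1.87 ± 0.52 (adjusted p = 0.0275), IGLL1 by 1.50 ± 0.33 (adjusted p = 0.0103), JCHAIN and both MZB1 probe sets. The 3 that fell were the kappa probe set 214768_x_at, which read 21.7 and 5.70 in MM.1S coculture and 67.7 and 42.0 in MM.1S alone, and the multi-gene heavy chain probe sets 228518_at and 217236_x_at, by 1.40 ± 0.40 and 1.07 ± 0.33 (adjusted p = 0.0315 and 0.0407). The count was 5 without either MM.1S alone array, 4 without MM.1S coculture replicate 1 and 2 without MM.1S coculture replicate 2. After quantile normalization it was 5, and the IGLL5 change was 1.34 (adjusted p = 0.177). The IGLL5 call was lost without any 1 MM.1S array (adjusted p between 0.0823 and 0.115), and the IGLL1 call without MM.1S coculture replicate 2 (adjusted p = 0.0757). Each of the 3 falls lost its call without at least 3 of the 4 MM.1S arrays taken singly, and in those 3 cases the change of 214768_x_at was between -2.10 and -1.13. Within MM.1S the IGLL1 probe set exceeded the array median in coculture only. The probe set 217236_x_at exceeded it on arrays kept alone only. The filter could favour both changes.

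One member was called in the fit common to the 3 lines, in which the duplicates were averaged and the lines were the replicates, against 1.13% of all tested probe sets (1.11% higher). It was 217022_s_at (IGHA2;IGHA1;IGH), at 2.56 ± 0.42 (SE, adjusted p = 0.0488), and it was higher on every coculture array than on every alone array of the same line. The share of all tested probe sets with that pattern was not counted. Its adjusted p was 0.0853 without INA-6 alone replicate 1 and 0.0546 without INA-6 alone replicate 2. A probe set annotated only to the heavy chain locus, 215118_s_at (IGH), was looked up afterwards. It read 2590 and 2560 in INA-6 coculture and 344 and 278 in INA-6 alone, 52.5 and 41.8 in MM.1R coculture and 10.3 and 6.32 in MM.1R alone, and 31.7 and 46.1 in MM.1S coculture and 6.38 and 9.29 in MM.1S alone. Its change in the common fit was 2.26 and was not called (adjusted p = 0.0707). The remaining tested IGH probe sets, 1558438_a_at and 211693_at, changed by -0.02 and -0.56 (adjusted p = 0.990 and 0.454). In the common fit 7 of the 14 tested stromal markers rose, and their part in the change of 217022_s_at was not tested.

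**Figure D4:**
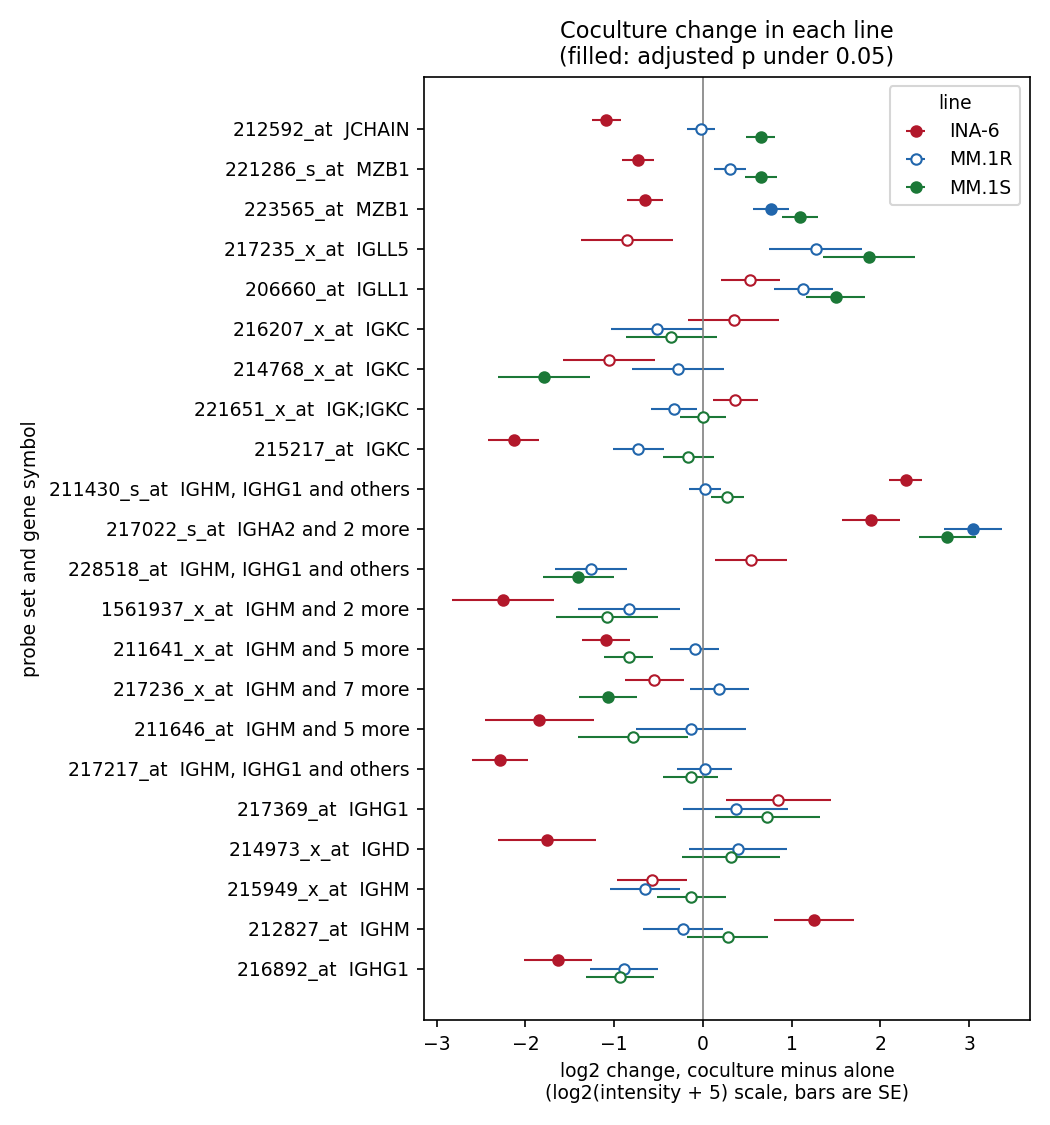
Log2 change in coculture relative to alone (x axis, bars are SE) for the main probe sets, the kappa probe set 221651_x_at and all members called in any line (y axis) in INA-6, MM.1R and MM.1S, filled where the adjusted p was under 0.05. The 217022_s_at points are filled and above 0 in all 3 lines, and the JCHAIN and MZB1 points of INA-6 lie below 0.

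The coculture effect itself differed between INA-6 and the mean of the MM.1 lines for 9 of the 39 tested members, 2 higher and 7 lower, against 36.9% of all tested probe sets (24.1% higher and 12.8% lower). The 2 higher were 211430_s_at at 2.13 ± 0.22 (adjusted p = 0.000259) and 228518_at at 1.87 ± 0.49 (adjusted p = 0.0187). The 7 lower were JCHAIN at -1.40 ± 0.20 (adjusted p = 0.00106), MZB1 by 221286_s_at at -1.21 ± 0.22 (adjusted p = 0.00346) and by 223565_at at -1.58 ± 0.25 (adjusted p = 0.00182), IGLL5, IGHD, the kappa probe set 215217_at and 217217_at. The probe set 217217_at passed the filter only through the INA-6 alone arrays, so its test adds no support. IGLL5, by 217235_x_at, differed by -2.43 ± 0.64 (adjusted p = 0.0183), though it was dim in INA-6 under both conditions. The IGLC1 probe sets went both ways, with 234851_at at -2.58 (adjusted p = 0.000529) and 214677_x_at at 0.97 (adjusted p = 0.0330). The remaining tested IGLC1 probe sets were not called. After quantile normalization the JCHAIN difference was -0.60 (adjusted p = 0.0367), and the calls of MZB1 by 221286_s_at (-0.56, adjusted p = 0.0618), IGLL5 (adjusted p = 0.0535), IGHD (adjusted p = 0.0714) and 228518_at (adjusted p = 0.0553) were lost. Without INA-6 coculture replicate 1 the calls of IGLL5 and 228518_at were also lost (adjusted p = 0.0845 and 0.0859). Without INA-6 alone replicate 2 the IGLL5 difference was -1.55, and without INA-6 alone replicate 1 that of 228518_at was 1.23. The effect in MM.1R did not differ by the test from that in MM.1S for any member (0 of 39 by limma, 2 with an unadjusted p under 0.05), against 0.398% of all tested probe sets.

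The 21 genes listed for immunoglobulin folding, assembly, secretion and message processing, of which 20 were tested, are mostly chaperones and secretory proteins that handle new chains. In coculture 1 was higher and 13 were lower in INA-6, 5 were higher and 1 lower in MM.1R, and 14 were higher and 1 lower in MM.1S. Over all tested probe sets 35.2% were higher and 12.5% lower in INA-6, 10.5% higher and 3.48% lower in MM.1R, and 20.4% higher and 8.98% lower in MM.1S. The median change was -0.77 in INA-6 against 0.40 over all tested probe sets, 0.47 in MM.1R against 0.02, and 1.02 in MM.1S against 0.05. HSPA5, the chaperone BiP that binds unassembled heavy chains, changed by -1.34 ± 0.16 in INA-6, 1.44 ± 0.16 in MM.1R and 0.93 ± 0.16 in MM.1S, and was called in each line. DNAJB11, a BiP cofactor, changed by -1.17 ± 0.16 in INA-6, 1.10 ± 0.16 in MM.1R and 2.18 ± 0.16 in MM.1S, and was also called in each.

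Of 12 listed regulators of immunoglobulin transcription and receptor partners 11 were tested. In coculture 5 were higher and 2 lower in INA-6, 5 were higher and none lower in MM.1R, and 7 were higher and none lower in MM.1S, beside the same shares of all tested probe sets. The median change was 0.29 in INA-6 against 0.40 over all tested probe sets, 0.75 in MM.1R against 0.02, and 1.08 in MM.1S against 0.05. XBP1, the transcription factor of the secretory programme, changed by -0.39 ± 0.16 in INA-6 (adjusted p = 0.0710), 0.77 ± 0.16 in MM.1R (adjusted p = 0.0142) and 1.25 ± 0.16 in MM.1S (adjusted p = 0.000654). After quantile normalization the MM.1R change of XBP1 was 0.41 (adjusted p = 0.114), and 1 of the 11 was called higher in MM.1R. IRF4 and SPIB, transcription factors of the B-cell lineage picked out after their values were seen, were called higher in all 3 lines, by 1.03 ± 0.23 and 1.56 ± 0.20 in INA-6, 0.89 ± 0.23 and 0.75 ± 0.20 in MM.1R, and 2.15 ± 0.23 and 2.22 ± 0.20 in MM.1S. Their MM.1R calls were lost after quantile normalization (adjusted p = 0.0614 and 0.152). The ACTB ratio was high in INA-6 coculture and in the MM.1 lines alone. Its part in the changes of the folding list and of the regulators was not tested.

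The genes whose pattern over the 12 arrays was most like each member, by Pearson's r on log2 values among 15037 genes, are given as a description. For JCHAIN they were CYCS (r = 0.962), which encodes cytochrome c, the mitochondrially encoded ND2 (r = 0.951) and HSD17B12 (r = 0.947). For MZB1 they were BARX2 (r = 0.956), NDUFAF4 (r = 0.908) and CD48 (r = 0.903). For IGLL5 they were CLEC7A (r = 0.995), ZBED10P and SH3TC1. For IGHA1, by 217022_s_at, they were VSIR (r = 0.988), LGR4 and RIPK2, and for IGKC, by 216207_x_at, FER1L4 (r = 0.982), GUCY2D and ACTL8. For IGHG1 the first was GUCY2D (r = 0.969), for IGLL1 TMEM51 (r = 0.973), for IGHD CELSR1 (r = 0.949) and for IGHM LINC02504 (r = 0.910). The 12 arrays hold 3 lines in 2 conditions, so many genes share each pattern.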

How the data were processed

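RNA of GFP-positive cells from 3 lines in 2 conditions was hybridised to 12 arrays, 2 per group. The intensity values are used as deposited by the authors, on a linear scale. MAS5 is the tool named, per the submitters' processing notes, whereas the series text describes dChip modelling and averaging of duplicates, although all 12 arrays are in the table. Version and settings were not given in the sources used here. Of 54675 probe sets 1 was left out for a missing value and 62 controls were not tested. Values were taken to log2(intensity + 5), without further scaling, and probe sets above the array median on at least 2 arrays were tested (35664). Symbols are those of the platform annotation, which gave 1 symbol to 41097 probe sets, several to 1801 and none to 11776. All 9 member symbols were found in RefSeq.

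limma 3.58.1 in R 4.3.3 (lmFit, eBayes, two-sided, Benjamini-Hochberg over all tested probe sets) was fitted in 2 ways. The fit common to the lines averaged duplicates and had the line as a block (2 residual degrees of freedom, 4.82 prior), with MM.1R and MM.1S entering as separate lines although they are related. The fit of all 12 arrays had a mean per group (6 residual, 2.21 prior) and gave the changes within lines, the differences between lines and the differences between coculture effects. The scripts were tested on simulated data with known changes. Precision is limited by the 2 arrays per group. Named probe sets were 1 main probe set per symbol (the tested probe set with that symbol alone and the highest mean, otherwise one with several symbols) and the 3 largest called rises and falls of each comparison. Uncalled main probe sets are given as a range or a count in the comparisons with 1 or no called member. The members and the gene lists were chosen with earlier results of these data known. Alternatives were pseudocounts of 1 and 16, no filter, quantile normalization, median centring, a replicate block, leaving out each array or all INA-6 arrays, and 12 arrays without averaging in the common fit. The tested folding list was HSPA5, HSP90B1, PDIA4, PDIA6, P4HB, ERP44, ERO1A, ERO1B, LMAN1, MCFD2, DNAJB9, DNAJB11, DNAJC3, SDF2L1, HYOU1, PPIB, CALR, CANX, TENT5C and ELL2, and the tested regulator list XBP1, PRDM1, IRF4, POU2AF1, POU2F2, SPIB, PAX5, CD79A, CD79B, VPREB1 and VPREB3. Promoter windows are RefSeq's (GRCh38.p14). Figures were drawn with matplotlib 3.10.9.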

Additional observations from a re-analysis of the deposited data

Results flagged for a closer look

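For 4 members the coculture change in INA-6 differed by limma's test from the mean change in MM.1R and MM.1S. JCHAIN (212592_at) differed by -1.40 ± 0.20 on the log2 scale (SE, adjusted p = 0.00106), with changes of -1.09 in INA-6, -0.02 in MM.1R and 0.65 in MM.1S, and by -0.60 after quantile normalization (adjusted p = 0.0367). MZB1 (221286_s_at) differed by -1.21 ± 0.22 (adjusted p = 0.00346), with changes of -0.73 in INA-6, 0.30 in MM.1R and 0.65 in MM.1S, and the call was lost after quantile normalization (-0.56, adjusted p = 0.0618). IGLL5 (217235_x_at) differed by -2.43 ± 0.64 (adjusted p = 0.0183), with changes of -0.85 in INA-6, 1.27 in MM.1R and 1.87 in MM.1S, and the call was lost after quantile normalization (adjusted p = 0.0535) and without INA-6 coculture replicate 1 (adjusted p = 0.0845). IGHD (214973_x_at) differed by -2.11 ± 0.67 (adjusted p = 0.0389), with changes of -1.76 in INA-6, 0.39 in MM.1R and 0.32 in MM.1S, and its adjusted p was between 0.0550 and 0.139 without any 1 of the 10 arrays other than MM.1S alone replicate 2 and INA-6 alone replicate 1. The ACTB control ratio was high in INA-6 coculture and in the MM.1 lines alone, and its part in these differences was not tested. No group had enough arrays for a check of single outlying arrays.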

How the results depend on the processing

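Of 77 named values, 50 passed the threshold; 22 of these 50 missed it under at least 1 alternative, and 3, all of JCHAIN, changed sign after quantile normalization. Called kappa differences between INA-6 and the MM.1 lines kept their sign and call under every alternative run for the probe sets named. Most of these probe sets passed the filter through INA-6, so the steadiness of their calls adds no support to the division. The count of members called in the fit common to the lines was 1, and it was 0 with a pseudocount of 1, without the filter and after quantile normalization, 7 with 12 arrays without averaging, and 0 to 1 with 1 array left out. For coculture in MM.1R it was 2, and it was 1 with a pseudocount of 1, after quantile normalization and after median centring, 4 with a pseudocount of 16 and without all INA-6 arrays, and 1 to 7 with 1 array left out. In MM.1S it was 9, 5 after quantile normalization and 2 to 13 with 1 array left out, and in INA-6 13 and 6 to 17. Between MM.1R and MM.1S alone it was 1, 0 with a pseudocount of 1, without the filter and after median centring, 2 without all INA-6 arrays and 0 to 3 with 1 array left out. For the difference of the MM.1R and MM.1S effects it was 0 and 0 to 1, and for that of the INA-6 effect 9 and 6 to 12.

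Quantile normalization turned the sign of JCHAIN in MM.1S coculture against MM.1S alone (-0.37), in INA-6 against the MM.1 lines alone (-0.11) and in MM.1R alone against MM.1S alone (-0.064). It also turned the uncalled values of IGKC (216207_x_at) for coculture in INA-6 (-0.14), of MZB1 (221286_s_at) in INA-6 against the MM.1 lines alone (-0.18) and of IGHD (214973_x_at) in the same comparison (0.004). With 1 array left out, uncalled coculture changes ran between -0.02 and 0.66 for IGHD and between -0.70 and 0.45 for IGHM in MM.1S, between -0.076 and 0.031 for JCHAIN in MM.1R, and between -0.62 and 1.31 for IGKC, -1.73 and 0.018 for IGLL5 and -0.25 and 1.95 for IGHG1 in INA-6. The IGHD difference of INA-6 alone ran between -1.24 and 0.62. The difference of the INA-6 effect ran between -0.47 and 0.11 for IGHM, -0.18 and 1.75 for IGKC and -0.80 and 1.40 for IGHG1. Without INA-6 alone replicate 1 the IGKC change in INA-6 was -0.62 with an adjusted p of 0.0259. The cause of these changes was not tested.

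The median change over all tested probe sets was 0.40 in INA-6 and 0.16 after quantile normalization, and the share of higher calls was 73.7% and 60.8%. In MM.1R that share was 75.1% and 57.1%, in MM.1S 69.4% and 57.5%, and between MM.1R and MM.1S alone 83.7% and 70.7%. Replicate numbers were not taken to pair the samples. Same-numbered deviations correlated between -0.518 and 0.576 over 15 pairs of groups. Between coculture and alone of the same line the correlation was 0.078 in INA-6, 0.576 in MM.1R and 0.385 in MM.1S. With the replicate number as a block, counts were 5 in the common fit, 1 in MM.1R, 0 between MM.1R and MM.1S alone, 7 in MM.1S and 11 in INA-6. Omitting all INA-6 arrays was not run for the common fit, since it would leave only the related MM.1 lines. Signals near or below the array median limit the dim heavy chain members.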
